A study of Arabidopsis thaliana with 12 samples.

Results

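The direct contrast of the 2 single mutants phyB-77 and bri1-5 is described here. It rests on 6 of the 12 Affymetrix ATH1 arrays of the series, the 3 arrays labelled as the gul2-1 mutant and the 3 labelled as the bri1-5 mutant, set against each other without the wild type in the fit. All 22746 probe sets of the array other than the 64 control probe sets were compared, of 22810 in the table. phyB-77, which the labels call gul2-1, is a single allele obtained by chemical mutagenesis, with a premature stop in the gene of the red light receptor phytochrome B, and its seedlings are tall in red light. bri1-5 is a single weak allele of the brassinosteroid (BR) receptor gene BRI1, and its seedlings are dwarf. Both mutants and the double mutant phyB-77 bri1-5 were compared by the study with the Ws-2 wild type, and the 3 arrays of each of these other genotypes are used below only to show where they lie. All seedlings were whole 7-day-old plants from agar plates under continuous red light according to the sample labels, whereas a legend of the study gives a shorter growth period. The arrays are labelled as biological replicates, but nothing says that they came from separate cultures, so the spread that the p-values rest on may be technical in part. Whole seedlings were extracted, so fewer cells of a type and less RNA per cell cannot be told apart.

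Phytochrome B is activated by red light, moves into the nucleus and removes PHYTOCHROME INTERACTING FACTORS (PIFs), basic helix-loop-helix proteins that promote elongation, so that seedlings without it stay long in red light. BRs bind BRI1 at the cell surface, and the signal releases the transcription factors BZR1 and BES1, which promote cell elongation and repress the genes of BR synthesis. Both routes meet at the PIFs, at auxin genes and at the enzymes that loosen the cell wall. The contrast therefore sets a tall seedling with an intact BR receptor against a dwarf seedling with an intact photoreceptor. The probe sets of PHYB and BRI1 carry no gene name in the annotation used, so the 2 mutated genes were not analysed here.

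Values are on the log2 scale, as given by robust multi-array averaging (RMA). A difference is the mean of phyB-77 minus the mean of bri1-5, given with its standard error (SE). A probe set is called where the moderated test of limma gave a Benjamini-Hochberg adjusted p under 0.01 over all 22746 probe sets, with no fold criterion. Array medians lay between 5.87 and 5.99 over the whole series. The arrays of 1 mutant correlated at 0.993 to 0.997 with each other and at 0.969 to 0.974 with those of the other mutant. The median SE of a difference was 0.118 and the largest 0.283.

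The 2 mutants differed widely. A total of 4356 probe sets were called, 19.2% of those tested, of which 2269 were higher in phyB-77 (9.98%) and 2087 were lower (9.18%). The balance of the directions depended on the scaling, with 2181 higher and 2279 lower after each array was centred on its median. The smallest called difference was 0.39 on the log2 scale and the median size of a called difference was 0.71, while the median difference over all probe sets was -0.02. The tails were not alike. Differences of more than 2 on the log2 scale were found for 148 probe sets higher in phyB-77 and 72 lower, and differences of more than 3 for 54 and 18. With 1 probe set per gene, 1617 of 14653 genes were higher in phyB-77 (11.0%) and 1482 were lower (10.1%). The 3 arrays of one mutant did not overlap the 3 of the other for 9329 probe sets (41.0%), and 4353 of the called probe sets were among them.

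**Figure D1:**
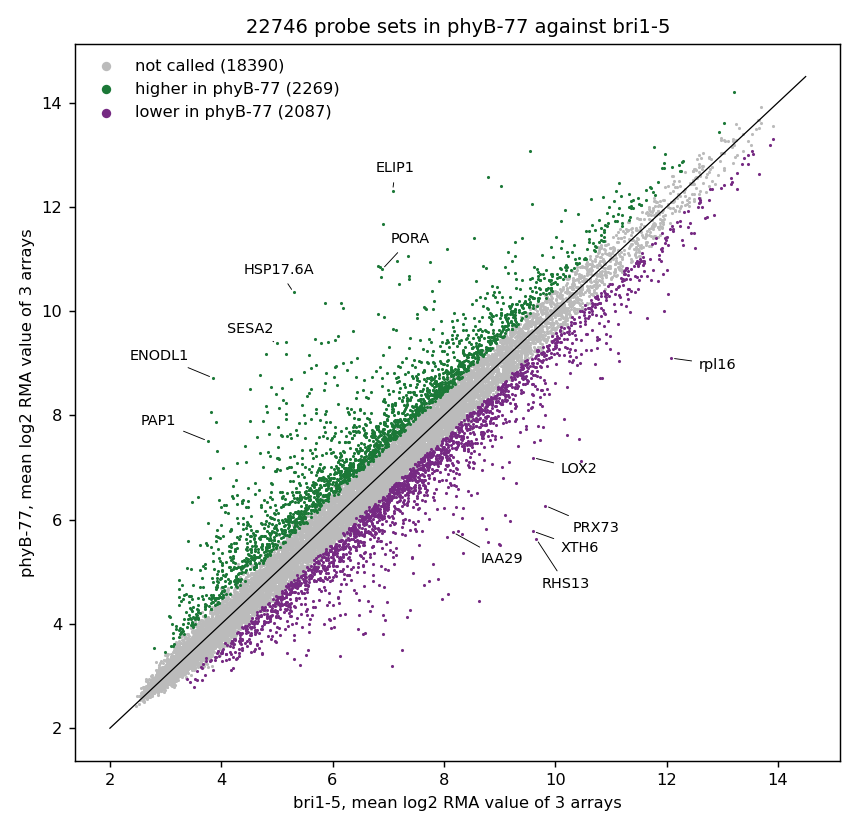
Mean log2 RMA value of 3 phyB-77 arrays (y axis) against 3 bri1-5 arrays (x axis) for 22746 probe sets. Probe sets called higher in phyB-77 (2269, green) lie above the line of equality and those called lower (2087, purple) below it, and a few genes described in the text are labelled.

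A limit on every count by gene list stands first. A total of 13354 genes were named by the array annotation, of which 8.33% were higher and 8.19% lower in phyB-77. A further 1299 genes were named only by the tables of the study, which select genes by their change on these same arrays, and of these 38.8% were higher and 29.9% lower. Lists whose members came from the tables are therefore not independent evidence of their size or direction, and the number named by the annotation is given with the lists.

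Of the 15 genes with the largest differences in favour of phyB-77, the top ones were, in order, ELIP1, HSP17.6A, ENODL1 and ELIP2. ELIP1 (AT3G22840), an early light-induced protein that binds pigments in the thylakoid when light is in excess, had log2 values of 12.30, 12.36 and 12.27 in phyB-77 and 7.20, 6.81 and 7.22 in bri1-5 (difference 5.23 ± 0.12 SE, 37.6-fold, adjusted p = 3.0e-11 in limma). Its relative ELIP2 had values of 11.71, 11.67 and 11.63 against 6.96, 6.59 and 7.14 (difference 4.78 ± 0.14). For both genes Ws-2 was close to bri1-5, with means of 7.69 ± 0.28 (SD, n = 3) for ELIP1 and 6.83 ± 0.11 for ELIP2. PORA, the protochlorophyllide oxidoreductase of dark-grown seedlings and not among these 15, had values of 10.81, 10.68 and 10.90 against 6.99, 6.94 and 6.73 (difference 3.91 ± 0.11, adjusted p = 6.8e-11). No array of one mutant overlapped the other for any of these genes. This was a condition for entering the 15, and it held for nearly all called probe sets.

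Genes of chlorophyll synthesis were split. Of 14 listed genes 4 were measured, 3 of them named by the annotation, and 2 were called in each direction. PORB, the isoform that persists in the light, was higher in phyB-77 by 0.79 ± 0.10 (adjusted p = 7.4e-05). CHLI2, a subunit of magnesium chelatase, was lower at -0.77 ± 0.11, and CHLM, the next enzyme of the pathway, at -0.61 ± 0.10. Nuclear genes of the photosynthetic apparatus were lower in phyB-77 or not called. Of 13 measured genes of 25 listed, 10 were lower and 0 were higher, with a median difference of -0.56, and all 6 genes named by the annotation were among the lower ones. The largest was PSAN, a lumenal subunit of photosystem I, with log2 values of 11.10, 11.39 and 11.33 in phyB-77 and 12.27, 12.16 and 12.43 in bri1-5 (difference -1.01 ± 0.12, adjusted p = 2.6e-05). The antenna gene LHCB6 was lower by a difference of -0.72 ± 0.11, PSAO of photosystem I by -0.69 ± 0.11 and PSBR of photosystem II by -0.62 ± 0.11. Without phyB-77 replicate 3 or without bri1-5 replicate 1, 6 of the 13 genes were lower.

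The flavonoid pathway, which ends in anthocyanin, was higher in phyB-77 for all but 1 of its measured genes. Of 21 listed genes 13 were measured, 12 were higher and 0 lower, with a median difference of 1.51, and 4 of the 5 named by the annotation were higher. PAP1, the MYB factor that switches on anthocyanin synthesis, had log2 values of 7.33, 7.82 and 7.39 in phyB-77 and 3.93, 3.66 and 3.69 in bri1-5 (difference 3.75 ± 0.14, 13.4-fold, adjusted p = 3.7e-10). The entry enzyme CHS, chalcone synthase, had values of 11.04, 11.07 and 11.03 against 9.43, 9.10 and 9.29 (difference 1.77 ± 0.11). At the end of the pathway, TT19, a glutathione transferase needed to store anthocyanin, differed by 2.15 ± 0.11, and the anthocyanin glucosyltransferase UGT75C1 by 1.74 ± 0.11. F3H, flavanone 3-hydroxylase, differed by 1.51, DFR, dihydroflavonol reductase, by 1.41 and PAL1, the first enzyme of phenylpropanoid metabolism, by 0.72. UGT78D1, a flavonol rhamnosyltransferase, was not called at 0.19.

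**Figure D2:**
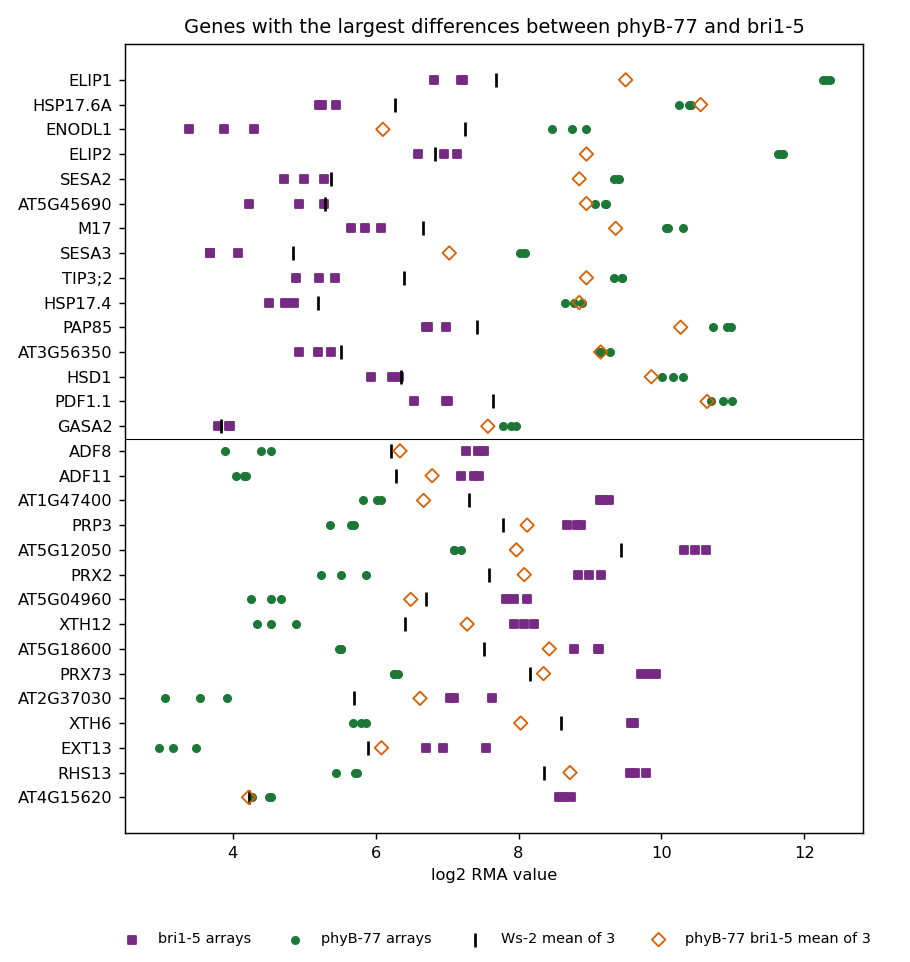
Log2 RMA values (x axis) of the 15 genes with the largest difference in each direction (y axis), with each phyB-77 array as a green circle, each bri1-5 array as a purple square, and the means of 3 Ws-2 arrays (black bar) and 3 phyB-77 bri1-5 arrays (orange diamond). The 30 genes were chosen among called genes for which the arrays of the 2 single mutants do not overlap. Most seed and heat shock genes have the double mutant near phyB-77, whereas ELIP1 at 9.50 and ELIP2 at 8.95 have it midway.

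Genes of the maturing seed were higher in phyB-77 as a block. All 23 listed genes were measured and all 23 were higher in phyB-77, with differences from 1.08 to 4.38 and a median of 3.43, and 4 of them were named by the annotation. SESA2 (AT4G27150), a seed storage albumin, had log2 values of 9.33, 9.39 and 9.40 in phyB-77 and 4.71, 5.00 and 5.28 in bri1-5 (difference 4.38 ± 0.14, 20.8-fold, adjusted p = 9.6e-11). The late embryogenesis gene M17 had values of 10.30, 10.09 and 10.07 against 5.65, 6.08 and 5.85 (difference 4.30 ± 0.13), and the cruciferin CRU3, a storage globulin, 13.05, 13.06 and 13.12 against 9.59, 9.48 and 9.56 (difference 3.53 ± 0.10). TIP3;2 (AT1G17810), a water channel of the membrane of the protein storage vacuole, had values of 9.45, 9.33 and 9.45 against 5.20, 5.43 and 4.88 (difference 4.24 ± 0.13). The same held for other genes of the seed among the 15 largest. SESA3 differed by 4.25, PAP85, a vicilin-like storage protein, by 4.07, the seed defensin PDF1.1 by 4.0, HSD1, a steroleosin of oil bodies, by 4.0, and GASA2, a gibberellin-regulated peptide, by 3.98.

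By the sum of the seed genes, in which the brightest such as CRU3 weigh most, phyB-77 lay beside the double mutant and bri1-5 beside Ws-2. Summed over the 23 genes, the linear signal on the log2 scale was 15.17 to 15.22 on the phyB-77 arrays and 14.87 to 14.92 in the double mutant, against 11.59 to 11.72 in bri1-5 and 11.64 to 11.73 in Ws-2. Of the 23 genes, 21 had a mean in the double mutant nearer to phyB-77 than to bri1-5, the exceptions being SESA1 and SESA4. For SESA1 the Ws-2 mean of 5.42 was also nearer to phyB-77 at 6.03 than to bri1-5 at 4.4. The albumin gene SESA5 showed 12.58 ± 0.16 (SD, n = 3) for phyB-77 and 12.04 ± 0.06 for the double mutant, against 8.91 ± 0.12 for Ws-2 and 8.80 ± 0.01 for bri1-5.

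Heat shock proteins were also higher in phyB-77. Of 14 listed genes 11 were measured, 10 were higher and 0 lower, with a median of 1.86, and all 5 named by the annotation were higher. HSP17.6A (AT5G12030), a cytosolic small heat shock protein that is also made in maturing seeds, had log2 values of 10.39, 10.42 and 10.25 in phyB-77 and 5.20, 5.25 and 5.44 in bri1-5 (difference 5.06 ± 0.11, 33.4-fold, adjusted p = 2.2e-11). HSP17.4 had values of 8.65, 8.89 and 8.77 against 4.51, 4.73 and 4.85 (difference 4.08 ± 0.12). HSP26.5 differed by 2.96 ± 0.16, HSP17.6C by 2.84 ± 0.13, the chaperone HSP70 by 2.08 and the disaggregase HSP101 by 1.83, while HSP17.6II was not called at 0.39 (adjusted p = 0.034). For 10 of the 11 genes the double mutant was nearer to phyB-77, and for HSP17.6A its level of 10.55 ± 0.11 (SD, n = 3) was not below that of phyB-77. Cold response genes were split, and the 2 of 5 measured genes named by the annotation were the 2 not called. The effector RD29A was higher in phyB-77 by 0.92 ± 0.12, and the regulators CBF2 and CBF1 were lower at -0.76 ± 0.13 and -0.71 ± 0.13. CBF1 and CBF2 were higher in the double mutant than in either single mutant, at 6.54 ± 0.05 and 7.92 ± 0.10 (SD, n = 3).

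**Figure D3:**
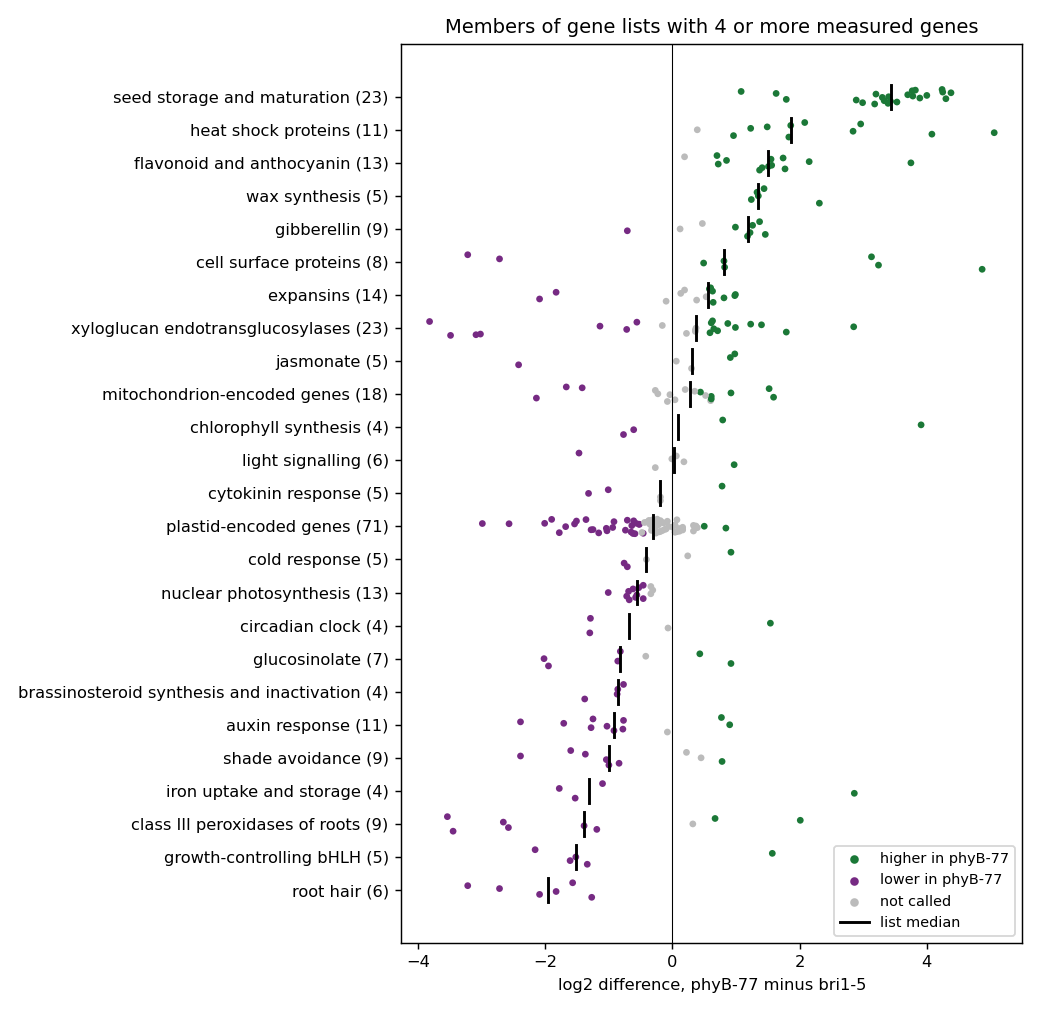
Log2 difference of phyB-77 minus bri1-5 (x axis) for each measured member (dot) of the gene lists with at least 4 measured genes (y axis, number of measured genes in brackets), with the list median as a black bar. All 23 seed genes lie to the right of 0 and all 6 root hair genes to the left, whereas the xyloglucan endotransglucosylases spread from -3.82 to 2.85.

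The genes of BR synthesis were lower in phyB-77 than in bri1-5. All 4 measured genes of 10 listed were called, each named only by the tables of the study, and the median was -0.86. BR6OX2 (AT3G30180), the enzyme of the last steps to brassinolide, had log2 values of 8.09, 7.6 and 7.99 in phyB-77 and 9.53, 9.09 and 9.20 in bri1-5 (difference -1.38 ± 0.15, 2.60-fold, adjusted p = 1.2e-05). CPD had values of 10.49, 10.38 and 10.43 against 11.15, 11.43 and 11.32 (difference -0.87 ± 0.11), and DWF4, the rate-limiting enzyme, 7.94, 7.67 and 7.81 against 8.72, 8.64 and 8.37 (difference -0.77 ± 0.12). CYP90D1 differed by -0.86 ± 0.14. The arrays did not overlap for any of the 4, as for nearly all called probe sets. Ws-2 lay closer to phyB-77, at 7.04 ± 0.06 (SD, n = 3) for BR6OX2 and 7.61 ± 0.15 for DWF4. In BR signalling, 2 of 11 listed genes were measured. BRL1, a homologue of BRI1 in vascular tissue, was higher in phyB-77 by 0.56 ± 0.11 (adjusted p = 0.0019), but was no longer called without bri1-5 replicate 1 (0.51) or phyB-77 replicate 3 (0.49), and its adjusted p ranged from 2.5e-04 to 0.016 over the alternatives. The BRL1 means, 3.94 in phyB-77 and 3.39 in bri1-5, were far below the array medians. The partner protein BIM1 was not called at -0.01 ± 0.13.

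Among light signalling genes, 6 of 18 listed were measured, 1 of them named by the annotation (HYH), and the 2 called ones went in opposite directions. PIF5, a PIF that promotes elongation, had log2 values of 8.17, 7.78 and 7.90 in phyB-77 and 9.21, 9.65 and 9.40 in bri1-5 (difference -1.47 ± 0.14, adjusted p = 3.2e-06). HY5, the bZIP factor that promotes de-etiolation, had values of 7.66, 7.52 and 7.58 against 6.74, 6.59 and 6.51 (difference 0.97 ± 0.11, adjusted p = 1.7e-05). PIF1, PIF3, HYH and BBX22 were not called, with differences of -0.01, 0.06, 0.18 and -0.27. The Ws-2 level of HY5, 6.70 ± 0.17 (SD, n = 3), was near that of bri1-5, and that of PIF5, 8.28 ± 0.07, was near that of phyB-77.

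Shade avoidance genes, which rise when phytochrome B is inactive, were mostly lower in phyB-77 than in bri1-5. Of 14 listed genes 9 were measured, 6 were lower and 1 was higher, with a median of -1.0, and both genes named by the annotation were lower. IAA29, an auxin response gene and direct target of PIFs, had log2 values of 6.16, 5.61 and 5.52 in phyB-77 and 8.16, 7.99 and 8.32 in bri1-5 (difference -2.39 ± 0.16, 5.24-fold, adjusted p = 1.1e-07). ATHB2, the homeodomain gene by which shade responses are commonly followed, had values of 7.04, 6.87 and 6.86 against 8.08, 7.93 and 7.76 (difference -1.0 ± 0.12). YUC9, an enzyme of auxin synthesis, differed by -1.60 ± 0.14 and PAR1, an atypical bHLH protein that limits shade responses, by -1.37 ± 0.11. CKX5, a cytokinin oxidase, was the single higher gene at 0.78 ± 0.15, and was not called without phyB-77 replicate 3 (0.70), where the adjusted p of 0.011 was the highest of its alternatives, the lowest being 5.5e-05. Without bri1-5 replicate 3, 2 of the 9 genes were higher. HFR1 and XTH15 were not called at 0.45 and 0.22. Ws-2 did not lie above bri1-5 for IAA29 or ATHB2, with means of 6.78 ± 0.04 and 6.46 ± 0.10 (SD, n = 3). Against Ws-2 the phyB-77 means went both ways. They were higher for ATHB2 (6.92), CKX5 (6.94 against 5.67), HFR1 (8.0 against 6.6) and XTH15 (12.72 against 10.88). They were lower for IAA29 (5.76), HAT2 (7.86 against 8.36), PAR1 (7.55 against 7.69) and YUC9 (3.7 against 3.97), and ATHB4 was level (3.83 against 3.82).

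The bHLH proteins that tune cell elongation followed the same side. Of 12 listed genes 5 were measured, all named by the tables of the study, and all 5 were called. PRE5 and PRE6, which the study reports as raised in phyB mutants, had no named probe set here. The growth promoters PRE3, BEE3, HBI1 and BEE2 were lower in phyB-77, and IBH1, the inhibitor that binds PRE and HBI1 proteins, was higher. PRE3 had log2 values of 5.40, 5.14 and 5.27 in phyB-77 and 7.56, 7.16 and 7.58 in bri1-5 (difference -2.16 ± 0.13, adjusted p = 4.9e-08). IBH1 had values of 7.89, 7.33 and 7.46 against 6.08, 5.69 and 6.21 (difference 1.57 ± 0.16, adjusted p = 7.4e-06). BEE3 differed by -1.61 ± 0.13, HBI1 by -1.52 ± 0.14 and BEE2 by -1.34. The tall mutant thus had a lower signal for 4 growth promoters and a higher one for their inhibitor than the dwarf mutant.

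Auxin-responsive genes were also lower in phyB-77. Of 19 listed genes 11 were measured, 8 were lower and 2 higher, with a median of -0.92, and 3 of the 4 named by the annotation were lower. IAA2 had log2 values of 9.20, 9.38 and 9.25 in phyB-77 and 10.92, 11.18 and 10.87 in bri1-5 (difference -1.71 ± 0.12, 3.27-fold, adjusted p = 1.5e-07). GH3.6, an enzyme that conjugates auxin to amino acids, had values of 8.97, 9.07 and 9.05 against 10.39, 10.35 and 10.18 (difference -1.28 ± 0.11). SAUR16, a small auxin-induced gene, differed by -1.25 ± 0.11, and both mutants lay below the Ws-2 level of 8.27 ± 0.13 (SD, n = 3). IAA17 at 0.90 and SAUR9 at 0.77 were the higher genes, and GH3.1 was not called at -0.08. Without bri1-5 replicate 1 or without phyB-77 replicate 3, 1 of the 11 genes was higher. For 8 of the 11 genes the double mutant was nearer to phyB-77, as for IAA2 at 9.42 ± 0.06 (SD, n = 3).

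Gibberellin genes leaned the other way. Of 22 listed genes 9 were measured, 6 were higher in phyB-77 and 1 was lower, with a median of 1.18, and 2 of the 3 named by the annotation were higher. GA2OX2, which inactivates gibberellin, had log2 values of 7.86, 8.02 and 7.93 in phyB-77 and 6.41, 6.66 and 6.36 in bri1-5 (difference 1.46 ± 0.11, adjusted p = 5.8e-07). RGL1, a DELLA repressor of growth, had values of 7.55, 7.37 and 7.54 against 6.08, 6.07 and 6.2 (difference 1.37 ± 0.11), and the receptor GID1B 7.14, 6.83 and 7.04 against 5.92, 5.64 and 5.68 (difference 1.26 ± 0.12). The higher genes thus held enzymes of synthesis and inactivation, receptors and a repressor at once. GA3OX1, the enzyme that makes active gibberellin, differed by 1.22, GA2OX1, another inactivating enzyme, by 1.18 and the receptor GID1A by 0.99, while GASA1 was lower at -0.71.

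The other hormone lists were small. In the cytokinin response 5 of 10 listed genes were measured, 2 of them named by the annotation (ARR15 and ARR16). The type A response regulators ARR8 and ARR9 were lower in phyB-77 at -1.32 ± 0.19 and -1.01 ± 0.10, and CKX5 was higher as given above. ARR15 and ARR16 were not called, both at -0.19. Their means in the single mutants, from 3.31 to 3.62, were far below the array medians, so a difference could go unseen. ACS8, an enzyme of ethylene synthesis, had log2 values of 5.36, 5.44 and 5.06 in phyB-77 and 7.43, 7.52 and 7.35 in bri1-5 (difference -2.14 ± 0.12, adjusted p = 2.4e-08), and ACO1, the other of the 2 measured ethylene genes, was not called at 0.22, both being named by the tables of the study. LOX2, the chloroplast lipoxygenase of jasmonate synthesis, had values of 7.30, 7.27 and 7.00 against 9.56, 9.75 and 9.51 (difference -2.42 ± 0.12, 5.34-fold, adjusted p = 6.3e-09). The jasmonate-responsive genes VSP1 and TAT3 were higher in phyB-77 by 0.98 ± 0.16 and 0.91 ± 0.14, so the jasmonate list was split, and 1 of its 5 measured genes (PDF1.2A) was named by the annotation. The probe sets of VSP1, of the peroxidase PRX2 and of the mitochondrial orf114 below are of a type that can match near-identical copies, so their values are uncertain as to the gene. AOS and PDF1.2A were not called at 0.30 and 0.06, and WRKY70, the single measured gene of the salicylic acid list and named by the tables of the study, was not called at 0.43 (adjusted p = 0.093).

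Genes of the cell wall held large differences in both directions. Of 27 listed xyloglucan endotransglucosylases (XTH), enzymes that cut and rejoin the xyloglucan tethers between cellulose fibres, 23 were measured. In phyB-77 11 were higher, 7 were lower and 5 were not called, with a median of 0.37, and of the 9 named by the annotation 4 were higher and 2 lower. XTH6 had log2 values of 5.68, 5.79 and 5.86 in phyB-77 and 9.62, 9.58 and 9.60 in bri1-5 (difference -3.82 ± 0.10, adjusted p = 6.8e-11). XTH12 (AT5G57530) had values of 4.88, 4.54 and 4.34 against 8.22, 8.08 and 7.94 (difference -3.49 ± 0.14), and XTH13 3.75, 3.98 and 3.70 against 6.94, 6.86 and 6.92 (difference -3.09 ± 0.11). XTH14 differed by -3.02 ± 0.13. XTH12, XTH13 and XTH14 are close relatives, and part of their signal may be shared between probe sets. On the other side were XTH25 at 2.85, XTH17 at 1.79, XTH31 at 1.40 and XTH32 at 1.23, which are named here after their values were seen. XTH15, XTH18, XTH20, XTH23 and XTH27 were not called.

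Expansins, which loosen walls without cutting them, differed in direction. Of 19 listed genes 14 were measured, 7 were higher, 2 lower and 5 not called, with a median of 0.56, and of the 10 named by the annotation 4 were higher and 2 lower. The 2 lower genes were the root hair expansins. EXPA18 had log2 values of 4.47, 5.07 and 4.67 in phyB-77 and 6.90, 6.92 and 6.67 in bri1-5 (difference -2.09 ± 0.15, adjusted p = 1.9e-07), and EXPA7 4.96, 4.34 and 4.48 against 6.37, 6.48 and 6.44 (difference -1.83 ± 0.14). EXPA4 and EXPA3 were higher in phyB-77 by 0.99 ± 0.11 and 0.98 ± 0.11. Without phyB-77 replicate 1, 4 expansins were higher in phyB-77.

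Cell surface proteins also differed in both directions. All 8 measured genes of 9 listed were called, all named by the tables of the study, 6 higher and 2 lower in phyB-77. ENODL1 (AT5G53870), an early nodulin-like protein, had log2 values of 8.94, 8.47 and 8.75 in phyB-77 and 4.29, 3.87 and 3.38 in bri1-5 (difference 4.87 ± 0.19, 29.3-fold, adjusted p = 6.5e-10). FLA13, a fasciclin-like arabinogalactan protein, had values of 10.70, 10.71 and 10.44 against 7.34, 7.26 and 7.52 (difference 3.24 ± 0.12), and the proline-rich protein PRP2 11.22, 11.14 and 11.22 against 8.12, 8.01 and 8.05 (difference 3.13 ± 0.10). For all 3 genes Ws-2 was nearer to phyB-77, at 7.25 ± 0.15, 9.68 ± 0.09 and 10.53 ± 0.09 (SD, n = 3), and the double mutant was midway. The proline-rich proteins PRP3 and PRP1 of root hairs were lower in phyB-77 at -3.22 ± 0.12 and -2.72 ± 0.12.

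Genes of root hairs were lower in phyB-77 as a block. All 6 measured genes of 9 listed were lower, with a median of -1.96, and both named by the annotation, EXPA7 and EXPA18, were among them. PRP3 had log2 values of 5.69, 5.66 and 5.36 in phyB-77 and 8.87, 8.82 and 8.68 in bri1-5 (9.33-fold, adjusted p = 3.6e-10). RHD2, the NADPH oxidase that drives tip growth of the hair, had values of 5.02, 4.95 and 5.03 against 6.47, 6.49 and 6.73 (difference -1.57 ± 0.11). COW1, a phosphatidylinositol transfer protein of the hair tip, differed by -1.27. The genes with the largest negative differences held further members of this kind. RHS13 (AT4G02270), which is named root hair specific, had values of 5.74, 5.44 and 5.71 against 9.56, 9.63 and 9.78 (difference -4.03 ± 0.12, 16.3-fold, adjusted p = 6.8e-11). The extensin EXT13 had values of 3.48, 2.96 and 3.16 against 6.94, 7.54 and 6.70 (difference -3.86 ± 0.19), and the actin depolymerizing factors ADF11 and ADF8 differed by -3.21 ± 0.11 and -3.13 ± 0.15.

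The other genotypes lay between the single mutants for RHS13 and for the root hair list as a sum. RHS13 was lowest in phyB-77 with 5.63 ± 0.17, followed by Ws-2 with 8.36 ± 0.04, the double mutant with 8.72 ± 0.09 and bri1-5 with 9.66 ± 0.11 (SD, n = 3). The summed linear signal of the 6 root hair genes on the log2 scale was 7.44 to 7.6 on the phyB-77 arrays, 8.94 to 9.05 in Ws-2, 9.08 to 9.13 in the double mutant and 9.85 to 9.91 in bri1-5. Genes of other root tissues gave a mixed picture, with 1 of the 3 measured markers of 6 listed named by the annotation (PYK10). IRT1, the iron transporter of the root epidermis, was lower in phyB-77 at -1.78 ± 0.14 (adjusted p = 7.9e-07), within the range of the root hair genes. PYK10, a beta-glucosidase abundant in roots, had values of 13.20, 12.90 and 13.02 in phyB-77 and 12.98, 13.05 and 13.06 in bri1-5 (difference 0.01 ± 0.11), and CASP1 of the root endodermis was not called at 0.34 ± 0.11 (adjusted p = 0.04, and 0.0078 to 0.14 over the alternatives). The summed signal of the 3 root markers, most of it from PYK10, was 13.10 to 13.36 in phyB-77 and 13.17 to 13.24 in bri1-5. Both measured leaf markers of 6 listed, 1 of them named by the annotation, were lower in phyB-77, RCA (Rubisco activase) at -0.62 ± 0.10 and the carbonic anhydrase CA1 at -0.58 ± 0.11, and CA1 was not called without phyB-77 replicate 2 (-0.52, adjusted p = 0.012, and 7.7e-05 to 0.012 over the alternatives). Their summed signal was 13.91 to 14.07 in phyB-77 and 14.54 to 14.63 in bri1-5. The part of the root and leaf share of the seedlings in the differences was not tested, and none of the 4 floral markers had a named probe set here.

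Class III peroxidases, secreted enzymes that cross-link or loosen wall polymers, were lower in phyB-77 for most of the root members. Of 10 listed genes 9 were measured, 6 were lower, 2 were higher and 1 was not called, with a median of -1.39, and of the 6 named by the annotation 4 were lower and 2 higher. PRX73 (AT5G67400) had log2 values of 6.25, 6.26 and 6.31 in phyB-77 and 9.83, 9.92 and 9.71 in bri1-5 (difference -3.54 ± 0.11, 11.7-fold, adjusted p = 6.8e-11). PRX2 had values of 5.87, 5.51 and 5.23 against 8.98, 9.15 and 8.83 (difference -3.45 ± 0.15), and PRX44 6.72, 6.80 and 6.62 against 9.41, 9.28 and 9.19 (difference -2.58 ± 0.11). PRX71 went the other way, with values of 7.94, 7.91 and 7.79 against 5.89, 5.78 and 5.96 (difference 2.01 ± 0.11, adjusted p = 1.3e-08), and the Ws-2 level of 7.89 ± 0.09 (SD, n = 3) was that of phyB-77. PRX72 was higher by 0.67 and PRX64 was not called at 0.32.

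Wax genes were higher in phyB-77, all 5 measured of 7 listed, with a median of 1.35 and 1 of them named by the annotation. CER1, which makes the alkanes of the cuticle, had log2 values of 9.23, 9.43 and 9.32 in phyB-77 and 6.93, 6.99 and 7.11 in bri1-5 (difference 2.31 ± 0.11, 4.97-fold, adjusted p = 3.6e-09). The wax ester synthase WSD1 differed by 1.44 ± 0.11, the midchain alkane hydroxylase CYP96A15 by 1.35 ± 0.12, the elongase KCS1 by 1.33 ± 0.12 and CER6 by 1.24. For none of the 5 was the double mutant nearer to phyB-77. For CYP96A15 both mutants lay below Ws-2, with means of 5.53 ± 0.09 for phyB-77 and 4.18 ± 0.19 for bri1-5 against 7.52 ± 0.09 for Ws-2 (SD, n = 3).

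Iron genes went both ways. Of 8 listed genes 4 were measured, all named by the tables of the study, and all were called. FER1, a plastid ferritin that stores iron, had log2 values of 11.20, 11.61 and 11.42 in phyB-77 and 8.38, 8.38 and 8.88 in bri1-5 (difference 2.86 ± 0.15, 7.25-fold, adjusted p = 1.2e-08). The root iron transporter IRT1 had values of 6.33, 6.03 and 6.31 against 8.13, 8.19 and 7.68 (difference -1.78 ± 0.14), the regulator BHLH39 6.61, 6.72 and 6.64 against 8.31, 8.07 and 8.18 (difference -1.53 ± 0.11), and the transporter OPT3 differed by -1.1 ± 0.11. The single storage gene was higher in phyB-77 and the 3 genes of uptake and transport were higher in bri1-5, too few to show a division by function. Their levels in the double mutant were nearer to phyB-77 for all 4.

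In glucosinolate synthesis, 7 of 22 listed genes were measured, 4 were lower and 2 higher in phyB-77, and of the 3 named by the annotation 2 were lower and 1 higher. MAM3 and BCAT4, enzymes that build the aliphatic side chain from methionine, differed by -2.02 ± 0.15 and -1.95 ± 0.13, and FMOGS-OX1, which modifies that chain, by -0.86 ± 0.12. The double mutant lay at the phyB-77 level for MAM3, with 4.48 ± 0.19 against 4.45 ± 0.11 (SD, n = 3). CYP79B2, the entry enzyme of the indole branch, was higher in phyB-77 by 0.92 ± 0.11, and MYB28, the regulator of the aliphatic branch, was not called at -0.42. The second higher gene, UGT74B1, a glucosyltransferase of the core pathway at 0.43, was not called when any one of the 6 arrays was left out.

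Of 12 listed clock genes 4 were measured, of which GI was the 1 named by the annotation. Under continuous light the morning genes LHY and CCA1 were lower in phyB-77, GI was higher and ELF3 was not called. LHY had log2 values of 8.12, 8.06 and 8.45 in phyB-77 and 9.57, 9.48 and 9.47 in bri1-5 (difference -1.29 ± 0.12, adjusted p = 3.3e-06), and CCA1 7.50, 7.50 and 7.59 against 8.58, 8.95 and 8.97 (difference -1.3 ± 0.12). GI, which peaks in the evening, had values of 9.21, 9.35 and 9.12 against 7.65, 7.62 and 7.79 (difference 1.54 ± 0.11, adjusted p = 2.4e-07), and ELF3 was not called at -0.07 ± 0.11. The Ws-2 means were 8.16 ± 0.03 for LHY and 7.12 ± 0.07 for CCA1, on the phyB-77 side, and 8.24 ± 0.08 for GI, between the mutants (SD, n = 3). In ribosome biogenesis the 3 measured genes of 7 were lower in phyB-77, 1 of them (At4g25730) named by the annotation, the pseudouridine synthase NAP57 at -1.37 ± 0.11, the nucleolar protein NOP56 at -1.34 ± 0.11 and the putative methyltransferase At4g25730 at -1.21 ± 0.14. The single measured gene of cell division, CDKB2;1 (named by the tables of the study), was not called at 0.12 ± 0.11.

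Genes encoded by the plastid were lower in phyB-77 or not called, apart from 2. Of 71 measured genes, 69 of them named by the annotation, 27 were lower, 2 were higher and 42 were not called, with a median of -0.30. rpl16, a protein of the large subunit of the plastid ribosome, had log2 values of 9.09, 8.94 and 9.26 in phyB-77 and 12.18, 12.18 and 11.89 in bri1-5 (difference -2.99 ± 0.12, 7.92-fold, adjusted p = 1.1e-09). Its neighbour rpl14 had values of 7.34, 7.79 and 7.77 against 10.07, 10.16 and 10.38 (difference -2.57 ± 0.14). Of 17 ribosomal protein genes, 15 of them named by the annotation, 8 were lower and 0 higher, with a median of -0.44, and of 43 photosynthesis genes, all named by the annotation, 15 were lower and 2 higher. ycf3, an assembly factor of photosystem I, differed by -1.90 ± 0.12, psbC, an inner antenna of photosystem II, by -1.68 ± 0.11 and rbcL, the large subunit of Rubisco, by -1.54, while psbA was not called at 0.00. The 2 higher genes were psaA at 0.84 and psbE at 0.50, and psbE was not called in 5 of the 6 fits that left out 1 array.

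The order of the genotypes differed between plastid rpl16 and nuclear PSAN. For rpl16 the means were 8.06 ± 0.07 in Ws-2, 9.10 ± 0.16 in phyB-77, 11.96 ± 0.10 in the double mutant and 12.08 ± 0.17 in bri1-5 (SD, n = 3). For PSAN they were 12.44 ± 0.06, 11.27 ± 0.15, 12.19 ± 0.04 and 12.29 ± 0.13 in the same order. For rpl16 it was therefore bri1-5 that lay far from Ws-2, and for PSAN it was phyB-77. Of 18 measured mitochondrial genes, 16 of them named by the annotation, 6 were higher in phyB-77 and 3 were lower. cox1 had values of 8.97, 8.46 and 8.68 against 11.08, 10.73 and 10.73 (difference -2.14 ± 0.14, adjusted p = 1.2e-07), and cox2 had 6.66, 6.04 and 6.39 against 4.55, 4.93 and 4.85 (difference 1.59 ± 0.16), so that 2 subunits of the same oxidase went in opposite directions. The unassigned reading frames orf111d and orf114 differed by 1.52 ± 0.13 and -1.42 ± 0.16.

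Some of the largest differences belonged to genes that carry only a locus name in the annotation used. AT4G15620, a CASP-like membrane protein, had the largest negative difference, with log2 values of 4.27, 4.53 and 4.51 in phyB-77 and 8.57, 8.73 and 8.62 in bri1-5 (difference -4.20 ± 0.11, 18.4-fold, adjusted p = 6.8e-11). Ws-2 at 4.23 ± 0.11 and the double mutant at 4.22 ± 0.26 (SD, n = 3) were at the phyB-77 level, so bri1-5 stood apart from the other 3 genotypes. AT1G47400 had values of 6.02, 6.08 and 5.82 against 9.18, 9.26 and 9.14 (difference -3.22 ± 0.11). AT5G12050, described as a serine-rich protein, differed by -3.35 ± 0.11, and AT2G37030, a SAUR gene, by -3.75 ± 0.20. AT5G18600, a glutaredoxin-like protein, differed by -3.50 ± 0.12, and AT5G04960, a pectinesterase, by -3.47 ± 0.13. Among the higher genes AT5G45690 differed by 4.37 ± 0.20, and AT3G56350, similar to a manganese superoxide dismutase, by 4.02 ± 0.13.

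**Figure D4:**
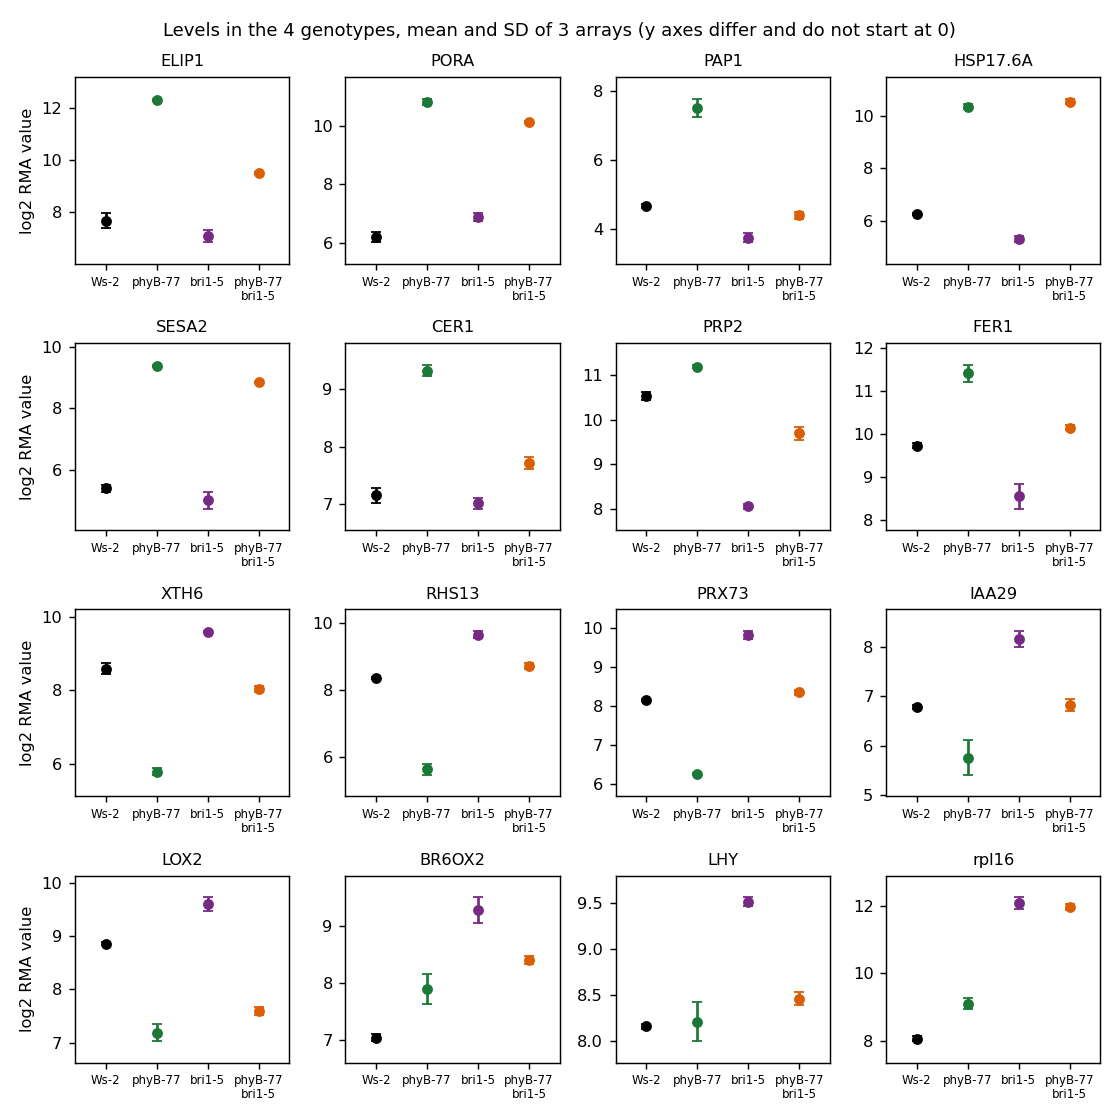
Log2 RMA values (y axes, which differ between panels and do not start at 0) of 16 genes in the 4 genotypes (x axis), as the mean and SD of 3 arrays. HSP17.6A and SESA2 have phyB-77 and the double mutant high, XTH6, RHS13 and PRX73 have phyB-77 lowest and bri1-5 highest, and rpl16 has bri1-5 and the double mutant high.

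The place of Ws-2 and the double mutant differed between the 2 sides of the contrast. For the 637 probe sets called and more than 2-fold higher in phyB-77, the Ws-2 mean lay between the mutants for 458 (71.9%), beyond bri1-5 for 148 (23.2%) and beyond phyB-77 for 31 (4.87%). Measured along the way from bri1-5 to phyB-77, the median position of Ws-2 was 25.8% and that of the double mutant 61.1%. For the 448 probe sets more than 2-fold lower in phyB-77, Ws-2 lay between the mutants for 319 (71.2%), with a median position of 50.3%, and the double mutant had a median position of 53.4%. The double mutant mean was nearer to phyB-77 for 376 of the 637 (59.0%) and for 245 of the 448 (54.7%). These positions share the arrays of both single mutants and are a description.

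The control probe sets of the array, which were left out of the contrast, differed between the mutants too. Of 24 poly-A controls, transcripts of Bacillus that can be added to the RNA before labelling, 14 were higher on the phyB-77 arrays, with a median difference of 0.46 (0.08 to 0.81). Of 18 hybridization controls 4 were higher, with a median of 0.22, and 5 of 6 actin and 3 of 5 ubiquitin probe sets were higher, with medians of 0.49 and 0.47, while 0 of 5 GAPDH probe sets were called. The 25S rRNA probe set was lower in phyB-77, with log2 values of 6.17, 5.98 and 6.41 against 7.50, 7.63 and 8.14 in bri1-5 (difference -1.57 ± 0.16, adjusted p = 8.6e-06). The actin probe sets come as 2 series along the transcript, which differed by 0.84, 0.71 and 0.50 at the 5′ end, the middle and the 3′ end in one and by 0.46, 0.48 and 0.21 in the other. The part of RNA amount, labelling or RNA quality in the called differences was not tested. Differences reached 0.81 on the log2 scale among the poly-A controls and 0.84 among the actin probe sets. The median size of a called difference, 0.71, is thus within the range seen among these controls.

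**Figure D5:**
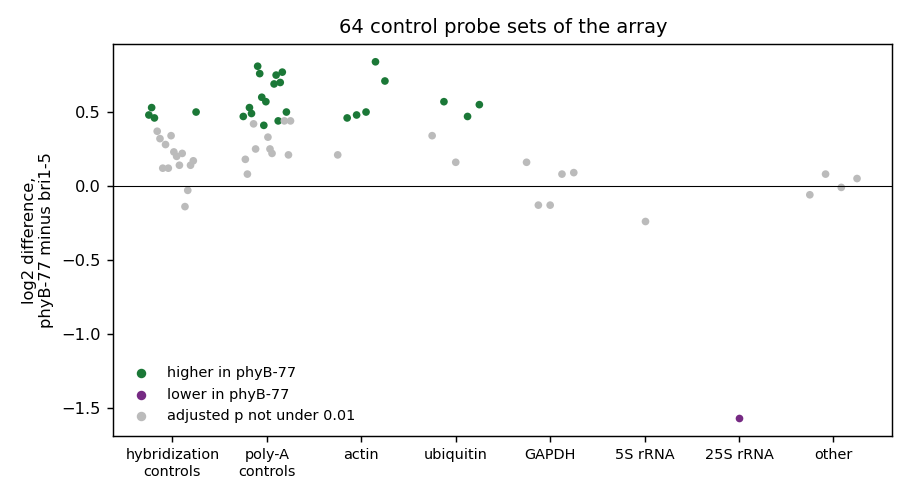
Log2 difference of phyB-77 minus bri1-5 (y axis) for each of the 64 control probe sets by kind (x axis), coloured where the adjusted p was under 0.01. The poly-A controls reach 0.81, actin reaches 0.84, and 25S rRNA lies at -1.57.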

How the data were processed

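The values deposited by the authors are log2 signals of Affymetrix ATH1 probe sets from RMA, which corrects background, equalizes the distributions of the arrays and summarizes each probe set; the software and the set of arrays normalized together are not given in the sources used here. These log2 values were used as deposited. Precision is limited by how few arrays there are. The 6 arrays of phyB-77 and bri1-5 were fitted in limma 3.58.1 (R 4.3.3) with lmFit and eBayes, two-sided, and p-values were adjusted by Benjamini-Hochberg over 22746 probe sets (4 residual and 9.05 prior degrees of freedom). The study cites another article for its tests and heads its tables with an adjusted p, from which the threshold of 0.01 was taken. On simulated arrays of this size with 67, 67 and 66 of the 22746 probe sets changed, 5.97% of 1.5-fold, 67.2% of 2-fold and 97.0% of 4-fold changes were called. Far fewer probe sets were changed there than were called in the data (4356), which makes the adjusted threshold stricter. These shares therefore need not hold for the data.

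Names came from the platform annotation, brought up to date with the RefSeq gene table, for 13513 probe sets and from the study's tables for 1299 more. A total of 503 probe sets with several genes and 7431 without a name entered the fit unnamed. The tables' columns of fold changes and p-values were not used. Where a gene had several probe sets, the one with the highest mean over the 6 arrays was taken. Members and gene lists were chosen with earlier results of these data known. Genes named are the 15 largest in each direction without overlap, up to 4 members of each list by adjusted p and the genes the study names. Of 12 genes listed from the study 8 were measured, and GER1, PRE5, PRE6 and ACS5 had no named probe set. List members named beyond this were chosen after their values were seen. No set test was made. A planned search of promoters for motifs was not run, since no promoter sequences were used here. Alternatives were other normalizations, thresholds, filters, variance models and sample sets, and each array left out in turn. Tables and figures were made with Python 3.11.15, pandas 2.3.3, numpy 2.4.6 and matplotlib 3.10.9.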

Additional observations from a re-analysis of the deposited data

Results flagged for a closer look

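The control probe sets of the array stood outside the contrast, and 13 of the 64 differed between the mutants at an adjusted p under 0.01 in limma with all 3 arrays of one mutant above all 3 Ws-2 arrays. On the bri1-5 arrays this held for 25S rRNA, with a mean log2 value of 7.76, which is 1.77 above Ws-2. On the phyB-77 arrays it held for 3 actin probe sets, with means of 12.85 at the 3′ end, 12.26 in the middle and 11.44 at the 5′ end, against 12.55, 11.97 and 11.24 in Ws-2. It held for 3 ubiquitin probe sets, with means of 12.86, 13.05 and 11.82 against 12.71, 12.78 and 11.55. Among the controls of bacterial origin it held for dap at 9.64, phe at 5.10 and thr at 8.03, 7.67 and 5.89, against 9.43, 4.86, 7.72, 7.36 and 5.74 in Ws-2. The phage control cre stood at 13.18 against 12.97. Apart from 25S rRNA, the phyB-77 means lay 0.15 to 0.31 above those of Ws-2, which is less than their distance from bri1-5.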

How the results depend on the processing

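No call of a gene named by the rule reversed its direction under any of the 18 alternatives run. The 4356 called probe sets became 4460 with each array centred on its median (2181 higher, 2279 lower), 4429 with quantile normalization (2202 higher, 2227 lower), 4013 without the 40% dimmest probe sets, 4570 with a variance trend and 5116 with array weights (2525 higher, 2591 lower), and at least 95.7% of the calls tested were kept under each of these. The majority of calls was thus lower in phyB-77 under these 3 settings, at the wider threshold below and without phyB-77 replicate 1 (1648 higher, 1772 lower), and higher otherwise. A wider threshold of 0.05 gave 6720 probe sets (3350 higher and 3370 lower in phyB-77), and a fold change above 2 gave 1085 (637 higher and 448 lower). Fitting all 12 arrays gave 6071, of which 4352 were among the 4356. Leaving out 1 array gave 2908 to 3812 called probe sets, 1563 to 1967 higher and 1345 to 1845 lower. The lowest of each came without phyB-77 replicate 3, which kept 2881 of the 4356 calls and moved the lower count from 2087 to 1345, with fewer arrays in the fit. Whether the replicate numbers pair the samples is not stated. The deviations of equally numbered arrays correlated at 0.0756, -0.0812 and 0.0344, which with 3 arrays per mutant cannot decide it. A fit with the replicate number as a block gave 4598 called probe sets (2385 higher, 2213 lower) and changed the call of no named gene. At a fold change above 2, 23 of 130 named genes lost their call. CASP1 and COR15A gained one at 0.05 and with all 12 arrays (adjusted p = 0.0078 for CASP1, 0.0078 to 0.14 over the refits, and 0.0019 for COR15A, 0.0019 to 0.087). Calls reached down to a difference of 0.39 on the log2 scale, and 3072 of the 4356 exceeded a 1.5-fold change. The share of true 1.5-fold differences that was missed in these data is not known.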

Other observations

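Gene families picked by their symbol, after the values were seen, gave further groups. All 6 measured genes named as late embryogenesis abundant (LEA) proteins, which protect cells in drying seeds, were higher in phyB-77, with differences from 1.37 to 2.89 on the log2 scale, and 4 of them were named by the annotation. All 4 genes named root hair specific (RHS) were lower, from -4.03 to -1.24, and 4 of 5 extensins were lower, with EXT11 at -2.87, EXT6 at -2.06 and EXT10 at -1.83, while EXT4 was not called at 0.29. The probe sets of EXT6 and EXT10 are of a type that can match similar genes, so their values are uncertain as to the gene. Of 4 actin depolymerizing factors 3 were lower and ADF9 was not called at -0.25. These 3 families were named only by the tables of the study.

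Of 8 ketoacyl-CoA synthases, which elongate the fatty acids of waxes and suberin, 5 were higher in phyB-77 and 0 lower, with KCS2 at 2.22 and KCS9 not called at -0.10, and all were named by the tables of the study. Arabinogalactan proteins were divided, with AGP3 lowest at -2.98 and AGP18 highest at 0.81, 3 called in each direction and 1 not called, all named by the tables of the study. Of 50 cytochromes P450, 23 were higher and 3 lower, but of the 24 named by the annotation 2 were higher and 2 lower, so that 21 of the 23 higher genes were named only by the tables. Of 53 UDP-glycosyltransferases, 49 of them named by the annotation, 12 were higher and 3 lower, with a median of 0.10, and 10 of the higher and all 3 lower genes were among the 49. Of 23 beta-glucosidases, 20 of them named by the annotation, 4 were higher, led by BGLU19 at 3.29, and 3 were lower, led by BGLU33 at -2.19. Of the 20, 2 were higher and 2 lower, near the share over all genes. Over all genes named by the annotation, 8.33% were higher and 8.19% lower.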
